A study of Saccharomyces cerevisiae with 34 samples.

Results

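The comparison described here sets a HAC1-deleted strain of budding yeast (Saccharomyces cerevisiae) against its wild-type (WT) counterpart when neither is under stress. It was chosen by sample label and holds 4 of the 34 libraries of the series, namely 1 mRNA library and 1 ribosome footprint library of untreated hac1 deletion cells and the same of untreated WT cells. Both strains are of the SK1 background and were grown in rich YEPD medium at 30C with shaking. After about 2 doublings each strain's culture was divided into 3, of which a subculture stayed untreated, another received 5 mM of the reductant dithiothreitol (DTT) and another 2 µg/mL of tunicamycin (Tm), an inhibitor of N-glycosylation, according to the labels' protocols. These 12 libraries make up the deletion experiment. The other 22 belong to an auxin experiment with other strains. Whether the deletion strain is a single clone, and the mating type and ploidy of either strain, are not given in the labels.

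Hac1 is the transcription factor of the yeast unfolded protein response. In unstressed cells HAC1 mRNA keeps an intron that blocks its translation. When unfolded proteins accumulate in the endoplasmic reticulum (ER), the ER kinase and nuclease Ire1 removes the intron, and the Hac1 protein then switches on genes for chaperones, glycosylation, protein degradation and transport. Ribosome profiling sequences the stretches of mRNA that ribosomes protect from nuclease (footprints), so the ratio of footprints to mRNA is read as how heavily a message is translated. Mating type also sets a gene programme in yeast: haploid a cells express a-specific genes, haploid alpha cells express alpha-specific genes, both express haploid-specific genes, and a/alpha diploids express none of these sets.

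Levels are RPKM (reads per kilobase of gene, scaled to library size), and every difference is log2(RPKM + 1) in hac1 deletion cells minus the same in WT cells, so a difference of 1 is close to 2-fold. A gene entered the counts if its mean over the 6 libraries of a molecule was at least 5 RPKM, which left 5693 of 6679 genes for mRNA, 5293 for footprints and 5286 for the footprint/mRNA ratio. A gene at 0 in 1 strain can pass through its level in the other. With 1 library a side the untreated differences have no replicate check, no error and no p-value, and "past 2-fold" describes these libraries only. The DTT and Tm pairs repeat the strain contrast in subcultures of the same cultures. A limma fit with terms for strain and treatment over the 3 pairs tested the strain difference they share, with Benjamini-Hochberg adjustment over all genes. Its p-values measure how much the strain difference varied over these 3 pairs of subcultures. That spread mixes technical variation with any response to treatment that differs between the strains, and the fit cannot separate them. The reads in genes, estimated from the smallest steps of the values, came to 17 M (mega reads) in the untreated hac1 deletion mRNA library and 16.5 M in that of WT, and to 15.9 M in the hac1 deletion footprint library and 8.82 M in that of WT. A label field on RNA subtype calls the libraries titled mRNA footprints and those titled fp mRNA, and titles and column names were followed. In the untreated WT libraries so named, HAC1 (0.0752) and GCN4 (0.196), 2 messages known for blocked translation, had few footprints per mRNA.

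The deleted gene checks the labels. HAC1 (YFL031W, chromosome VI) mRNA was 42.1 RPKM in untreated hac1 deletion cells and 2372 RPKM in untreated WT cells, a difference of -5.78. HAC1 footprints were 54.4 RPKM in hac1 deletion cells and 178 RPKM in WT cells, a difference of -1.70. In hac1 deletion cells these levels correspond to an estimated 190.9 mRNA reads and 232.2 footprint reads, so reads assigned to HAC1 remained in both libraries. YFL032W, a dubious reading frame that overlaps HAC1, was lower with it, at 7.42 RPKM in hac1 deletion cells and 659 RPKM in WT cells. Of the neighbours, AGX1, an alanine:glyoxylate aminotransferase gene, was higher in untreated hac1 deletion cells (155 RPKM, against 46.9 RPKM in WT cells) by 1.70 in mRNA and 2.39 in footprints, but differed by 0.10 in mRNA in the DTT pair and 0.07 in the Tm pair. On the other side of HAC1, RPL22B, which encodes a copy of a large-subunit ribosomal protein, was lower in mRNA (-0.77), short of 2-fold. It was lower by more in footprints, with 127 RPKM in hac1 deletion cells and 1038 RPKM in WT cells (-3.02). That footprint difference was -0.01 with DTT, where RPL22B footprints were low in both strains, and -2.37 with Tm.

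Beyond HAC1 the strains differed at many genes without any stress. For mRNA, 196 genes (3.44% of those tested) were higher in hac1 deletion cells past 2-fold and 256 (4.5%) were lower. For footprints the counts were 217 (4.1%) higher and 275 (5.2%) lower, and for the footprint/mRNA ratio 38 (0.719%) higher and 83 (1.57%) lower. The median gene was itself above 0, at 0.21 for mRNA and 0.20 for footprints, and 0.00 for the ratio. With the median of all genes set to 0, 103 genes were higher and 366 lower in mRNA, so the higher share moved to 22.0%, against 43.4% without centring. For footprints centring gave 115 higher and 380 lower, a higher share of 23.2%, against 44.1%. Gene lists are therefore also described relative to the median of all genes.

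Most of the untreated differences had the same sign in the stressed pairs. Of the mRNAs past 2-fold, 151 of the 196 higher and 228 of the 256 lower kept their sign in both the DTT and the Tm pair, and for footprints 171 of 217 and 241 of 275 did. The share of all genes with a given sign in both pairs was not counted, so these counts have no background. The median gene was above 0 in both pairs, at 0.09 with DTT and 0.09 with Tm for mRNA and 0.05 and 0.17 for footprints. The counts also include the offsets of chromosomes II and VIII described below. Past 2-fold in all 3 pairs were 53 genes higher (0.931%) and 120 lower (2.11%) for mRNA, 55 higher (1.04%) and 121 lower (2.29%) for footprints, and 7 higher (0.132%) and 23 lower (0.435%) for the ratio. The limma fit called 506 mRNAs higher (8.89%) and 351 lower (6.17%), 394 footprint genes higher (7.44%) and 293 lower (5.54%), and 28 ratios higher (0.53%) and 67 lower (1.27%) at adjusted p under 0.05. Median-ratio scaling of the libraries turned the balance round, with 290 mRNAs higher and 423 lower and 202 footprint genes higher and 349 lower. The mRNA calls depended most on the Tm pair. Without the Tm pair 1 mRNA was called, YFL032W, which overlaps the deleted gene, and with no filter on low values 1 gene other than it was called (YDR371C-A, an uncharacterised reading frame). Without the DTT pair 19 mRNAs were higher and 73 lower, and without the untreated pair 389 and 544.

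The genes past 2-fold were unevenly placed in the genome. Most genes on chromosome II were higher in hac1 deletion cells than the median gene and most genes on chromosome VIII were lower. On chromosome II the median mRNA difference of 410 genes was 0.75, which is 0.56 above the median of the other chromosomes, a ratio of 1.47, and 87.6% of the genes lay above the median of all genes. On chromosome VIII the median of 257 genes was -0.79, which is 1.03 below the others, a ratio of 0.491, and 3.89% of the genes lay above the median of all genes. The medians of the other 14 chromosomes ran from 0.17 to 0.28. Footprints gave the same picture, with medians of 0.72 over 378 genes on chromosome II, -0.80 over 238 genes on chromosome VIII and 0.18 to 0.28 on the others. The footprint/mRNA ratio medians were close to 0, at -0.01 on chromosome II, 0.05 on chromosome VIII and 0.00 to 0.02 elsewhere. Chromosome VIII held 6 of the 38 higher ratios (15.8%) and 4.48% of the genes tested for the ratio.

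**Figure D1:**
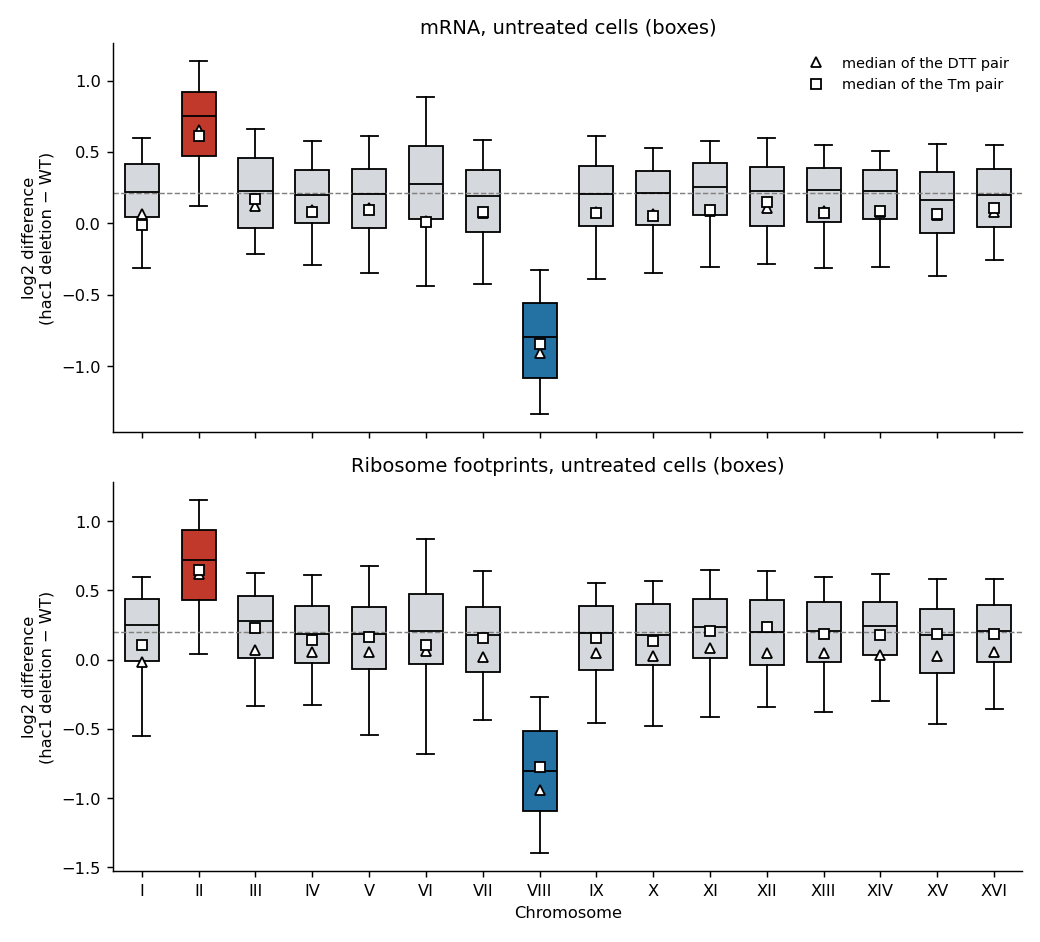
Boxes show the log2(RPKM + 1) difference, hac1 deletion minus WT, of the genes on each chromosome (x axis) in untreated cells, for mRNA (top) and footprints (bottom); triangles and squares are the medians of the DTT and Tm pairs and the dashed line is the median of all genes. Chromosome II (red) sits above the line and chromosome VIII (blue) below it, with mRNA medians of 0.75 and -0.79, while the other 14 run from 0.17 to 0.28.

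The offsets ran the length of both chromosomes and were there in every pair. For mRNA the left and right arms of chromosome II had medians of 0.75 and 0.76, and those of chromosome VIII -0.84 and -0.79. A running median of 21 neighbouring genes stayed between 0.59 and 0.91 on chromosome II and between -1.13 and -0.60 on chromosome VIII, so no window crossed to the other side of 0. On the other 14 chromosomes it ran from -0.25, on chromosome V, to 0.61, on chromosome III, so the highest window of chromosome III lay just above the lowest of chromosome II. On chromosome IV, which is plotted for comparison, it ran from -0.08 to 0.37. With DTT the mRNA medians were 0.66 on chromosome II and -0.91 on chromosome VIII, and with Tm 0.61 and -0.85. DNA copy number was not measured in the files used here. In the auxin experiment, whose table was normalized separately, cells that express TIR, a plant receptor used for auxin-induced protein degradation, set against cells without it, both with auxin alone for 1 h, had chromosome medians between -0.01 and 0.03.

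**Figure D2:**
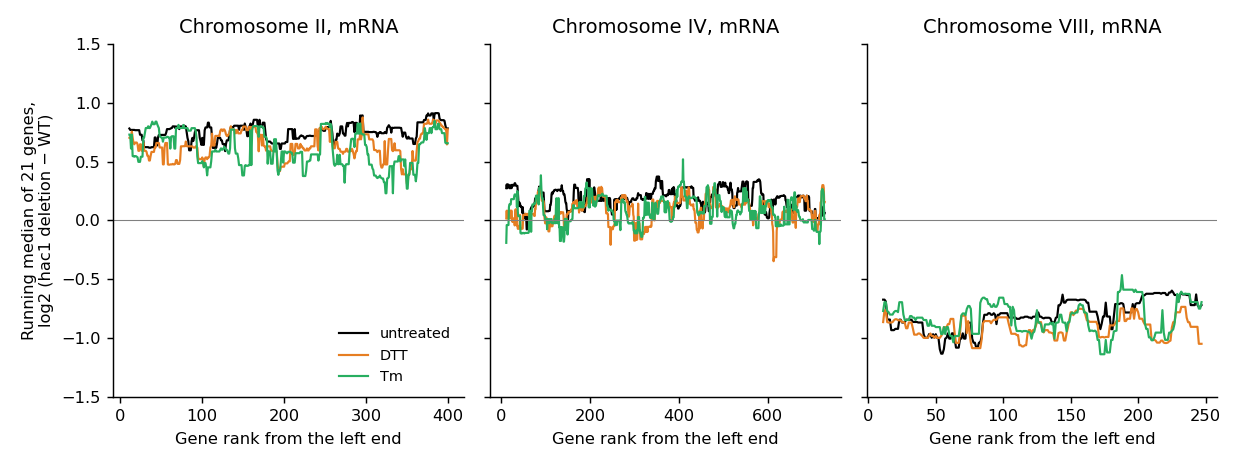
Running medians over 21 neighbouring genes of the mRNA log2(RPKM + 1) difference, hac1 deletion minus WT (y axis), in gene order along chromosomes II, IV and VIII (x axis), with a line for each treatment. In untreated cells the line stays between 0.59 and 0.91 on chromosome II and between -1.13 and -0.60 on chromosome VIII, against -0.08 to 0.37 on chromosome IV.

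These 2 chromosomes supplied many of the genes past 2-fold. Chromosome II holds 7.20% of the tested genes but 71 of the 196 higher mRNAs (36.2%) and 79 of the 217 genes higher in footprints (36.4%). Chromosome VIII holds 4.51% of the tested genes but 78 of the 256 lower mRNAs (30.5%) and 72 of the 275 genes lower in footprints (26.2%), and none of the higher mRNAs. Outside both, 125 mRNAs were higher and 170 lower, and 133 and 192 genes in footprints. The limma fit called 208 mRNAs higher and 8 lower on chromosome II and 170 lower and 0 higher on chromosome VIII. Over all genes it called 8.89% higher and 6.17% lower. Without the DTT pair it called 4 higher on chromosome II and 12 lower on chromosome VIII, and without the Tm pair 0 on each.

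Few genes went against their chromosome. On chromosome II 35 of 378 genes (9.26%) lay below the median of all genes in both mRNA and footprints of untreated cells, 15 of them in all 3 pairs. Among these were FUS3, the kinase of the mating pathway, and ADH5, an alcohol dehydrogenase gene, with 53.5 RPKM in hac1 deletion cells and 647 RPKM in WT cells (-3.57). RTC2, a gene for a vacuolar transporter of basic amino acids, also went against chromosome II by -3.50. On chromosome VIII 4 of 237 genes (1.69%) lay above the median of all genes in both measures, and 1 of them did so in all 3 pairs. This was ARO9, an aromatic aminotransferase gene, with 26.8 RPKM in hac1 deletion cells and 14.2 RPKM in WT cells. IRE1, the gene of the ER sensor itself, lies on chromosome VIII and followed it, with 20.95 RPKM in hac1 deletion cells and 37.7 RPKM in WT cells (-0.82).

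Genes of mating were far lower in hac1 deletion cells. All 7 a-specific genes were lower past 2-fold in untreated hac1 deletion mRNA (background 4.5%), with a median of -5.02, or -5.23 relative to all genes, and so were the 6 that could be tested for footprints. Their summed mRNA was 89.2 RPKM in hac1 deletion cells and 2908 RPKM in WT cells. STE2, the receptor for alpha-factor, had mRNA of 27.9 RPKM without treatment, 32.7 RPKM after DTT and 32.7 RPKM after Tm in hac1 deletion cells, against 936, 228 and 372 RPKM in WT cells. All 3 hac1 deletion libraries lay below all 3 WT libraries. The share of all genes whose libraries separate in this way was not counted, here or for the genes below. The 3 libraries of a strain are from subcultures of the same culture, so such a separation is a description only. STE2 footprints were 4.47, 0.574 and 3.65 RPKM in those hac1 deletion samples, against 585, 148 and 203 RPKM in WT cells. The shared strain difference for STE2 was -3.75 in mRNA (SE 0.439, 3 pairs, limma adjusted p = 0.0173) and -6.25 in footprints (SE 0.292, limma adjusted p = 0.00916). The mRNA call for STE2 was lost without the Tm pair (limma adjusted p = 0.0903, with 0.0139 to 0.0903 over the 3 leave-one-out fits), and the footprint call was not (highest limma adjusted p 0.0339).

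The other a-specific genes followed. MFA1 and MFA2 encode the a-factor pheromone: MFA2 mRNA was 10.5 RPKM in untreated hac1 deletion cells and 1018 RPKM in WT cells (-6.46), and MFA1 mRNA was 7.85 RPKM in the deletion and 367 RPKM in WT (-5.38). AGA2, the adhesion subunit of a-agglutinin, had 1.96 RPKM in hac1 deletion cells and 269.9 RPKM in WT cells, and BAR1, the protease that cleaves alpha-factor, had 9.75 RPKM in the deletion and 148 RPKM in WT. STE6, the exporter of a-factor, differed by -2.29 in mRNA and by -4.66 in footprints, and ASG7, a regulator of the G protein beta subunit, by -3.12 in mRNA. With DTT the list's median relative to all genes was -2.65, and with Tm -3.56. The summed mRNA was 114 RPKM with DTT and 132 RPKM with Tm in hac1 deletion cells, against 987 and 2130.4 RPKM in WT cells. AGA1, the anchor subunit of a-agglutinin, which was not on the a-specific list, showed more in footprints (2.87 RPKM in hac1 deletion cells and 86.4 RPKM in WT cells) than in mRNA (10.3 RPKM in the deletion and 20.6 RPKM in WT).

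**Figure D3:**
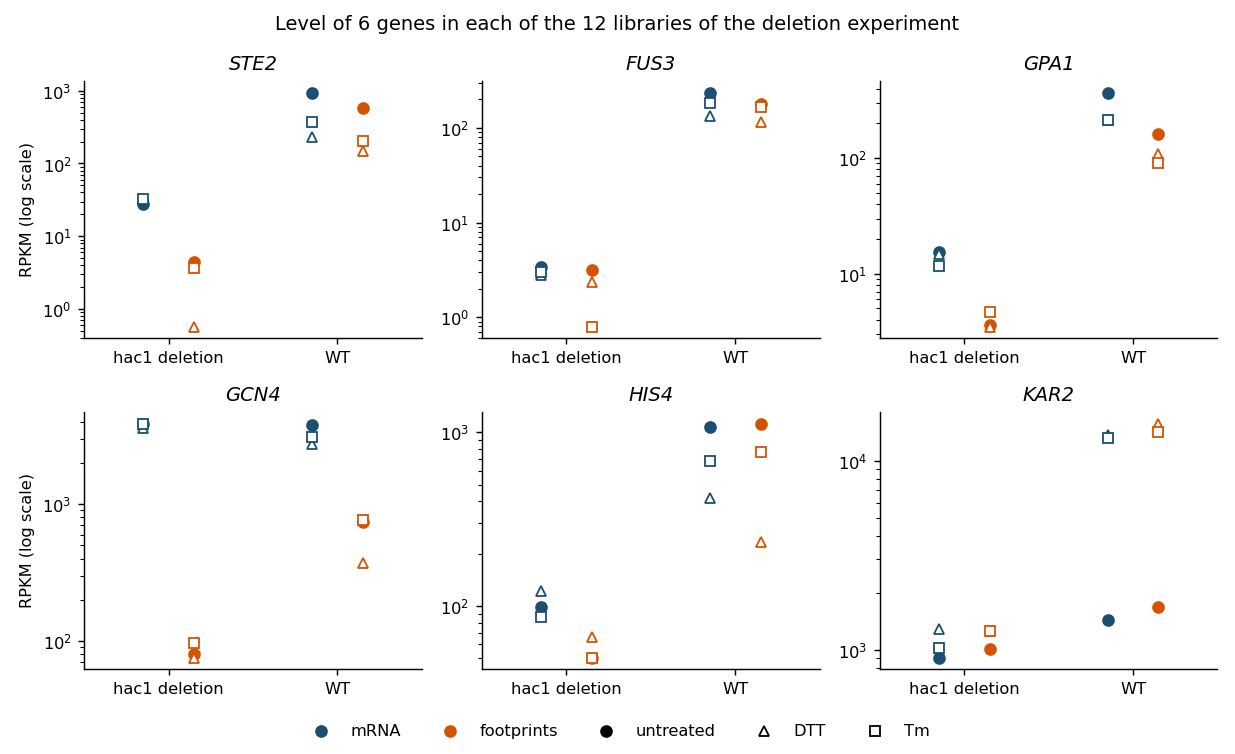
RPKM on a log axis of mRNA and footprints for STE2, FUS3, GPA1, GCN4, HIS4 and KAR2 in all 12 libraries of the deletion experiment, 1 point a library, by strain and treatment. STE2, FUS3 and GPA1 are low in all hac1 deletion libraries, GCN4 differs in footprints and little in mRNA, and KAR2 separates the strains mainly with DTT or Tm (untreated mRNA 907 RPKM in hac1 deletion and 1440.1 RPKM in WT).

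Genes that both haploid types use were lower too. Of 13 haploid-specific genes tested, 10 were lower past 2-fold in mRNA (background 4.5%) and 10 of 12 in footprints (background 5.2%). The medians were -2.76 and -3.55, and none was higher past 2-fold. FUS3 mRNA was 3.40 RPKM without treatment, 2.77 RPKM after DTT and 3.04 RPKM after Tm in hac1 deletion cells, against 236, 133 and 185 RPKM in WT cells. GPA1, the alpha subunit of the pheromone-coupled G protein, had 15.3, 14.9 and 11.7 RPKM in hac1 deletion cells, against 368, 216 and 213 RPKM in WT cells. For neither gene did the libraries of the strains overlap. The shared difference was -5.48 for FUS3 (SE 0.186, limma adjusted p = 0.00312) and -4.11 for GPA1 (SE 0.176, limma adjusted p = 0.00627). Both mRNA calls were lost without the Tm pair (limma adjusted p of 0.0803 for FUS3 and 0.0903 for GPA1, the highest of 3 leave-one-out fits each). GPA1 lies on chromosome VIII, but its difference was far larger than that chromosome's offset.

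Other members of the haploid-specific list were lower as well. STE4 and STE18, the beta and gamma subunits of the G protein, differed by -3.07 and -5.20 in untreated mRNA. STE18 was listed at 0 in the hac1 deletion DTT mRNA library. FAR1, which arrests the cell cycle in response to pheromone, had 2.30 RPKM in hac1 deletion cells and 128 RPKM in WT cells. RME1, a repressor of meiosis, differed by -3.46, NEJ1, a non-homologous end joining factor, by -2.76, and FUS1, a membrane protein of cell fusion, by -2.76. SST2, which damps pheromone signalling, differed by -1.76. STE5, the scaffold of the mating kinases, differed by -1.41 in mRNA and by -3.58 in footprints. HO, the mating-type switching endonuclease gene, (-0.29), AMN1, which acts in daughter cell separation, (0.64) and DDI1, a ubiquitin-binding protease gene, (0.88) were not past 2-fold.

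Genes of alpha cells were low in both strains. STE3, the a-factor receptor, was at 2.52 RPKM in hac1 deletion cells and 1.09 RPKM in WT cells, and the alpha-factor gene MF(ALPHA)1 at 0.808 RPKM in hac1 deletion cells and listed at 0 in WT cells. SAG1, alpha-agglutinin, passed the filter and differed by 0.87. The summed mRNA of the 4 alpha-specific genes was 34.3 RPKM in hac1 deletion cells and 17.6 RPKM in WT cells, and that of 12 middle and late meiotic genes was 122 RPKM in hac1 deletion cells and 114 RPKM in WT cells. At the mating-type loci, HMRA1 had 89.2 RPKM in hac1 deletion cells and 116 RPKM in WT cells, MATALPHA1 had 20.4 RPKM in the deletion and 18.5 RPKM in WT, and MATALPHA2 was listed at 0 in both. These genes have near-identical silent copies that can share reads, so their values do not show which cassette is expressed. In the auxin strains, normalized separately, STE2 mRNA with auxin alone was 21.1 and 13.5 RPKM in TIR cells at 1 h and 2 h and 16.4 RPKM in cells without TIR at 1 h. The state of the mating genes, the chromosome offsets and the HAC1 deletion differ between the same pair of strains and cannot be told apart as sources of any other difference given here.

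GCN4 differed between the strains in footprints and hardly in message. Gcn4 is the activator of amino acid synthesis genes, and short reading frames in the leader of its message limit translation of the protein when amino acids are plentiful. GCN4 mRNA was 3889 RPKM without treatment, 3637 RPKM after DTT and 3873 RPKM after Tm in hac1 deletion cells, against 3807, 2774 and 3102 RPKM in WT cells. GCN4 footprints were 80.9, 75.6 and 96.8 RPKM in hac1 deletion cells, against 745, 374 and 762 RPKM in WT cells. Message levels were close in untreated cells (0.03), while all 3 footprint libraries of hac1 deletion cells lay below all 3 of WT cells. Footprints per mRNA were 0.0208, 0.0208 and 0.0250 in hac1 deletion cells, against 0.196, 0.135 and 0.246 in WT cells. The untreated ratio difference was -3.22, and the shared one was -3.06 (SE 0.117, 3 pairs, limma adjusted p = 7.51e-06). It remained called in each of the 3 leave-one-out fits (limma adjusted p of 8.58e-05 at most), but not with no filter on low values (limma adjusted p = 0.261). A leave-one-out fit of the ratio has 1 residual degree of freedom and takes most of a gene's spread from that of all genes. Without the untreated pair such a fit called more ratios (62 higher and 119 lower) than the full fit (28 and 67). Ratio calls kept in these fits, here and below, therefore say little of their stability.

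Genes of amino acid synthesis on the Gcn4 list were lower in mRNA and footprints. Of 40 tested, 23 were lower past 2-fold in mRNA (background 4.5%) and 24 in footprints (background 5.2%), and 0 were higher. The medians were -1.05 for mRNA and -1.30 for footprints, or -1.26 and -1.51 relative to all genes, and relative to all genes -0.70 with DTT and -0.96 with Tm for mRNA. Outside chromosomes II and VIII 20 of 35 were lower. HIS4, an enzyme of histidine synthesis, had mRNA of 98.5, 122 and 86.7 RPKM untreated, with DTT and with Tm in hac1 deletion cells, against 1076, 421 and 680.1 RPKM in WT cells, which do not overlap. Its footprints in untreated cells were 50.4 RPKM in the deletion and 1124 RPKM in WT (-4.45). The shared HIS4 mRNA difference was -2.72 (SE 0.332, limma adjusted p = 0.0181, with 0.00591 to 0.0968 over the leave-one-out fits, the last without the Tm pair). The limma fit called 22 of the list lower in mRNA (background 6.17%). It called 15 without the untreated pair, 13 without the DTT pair and 0 without the Tm pair.

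Arginine synthesis genes on the list differed in size. ARG1, argininosuccinate synthase, had 244 RPKM in untreated hac1 deletion cells and 3068 RPKM in WT cells, and ARG4, argininosuccinate lyase, on chromosome VIII, 217 RPKM in the deletion and 2932 RPKM in WT. ARG3, ornithine carbamoyltransferase, differed by -2.07 and ARG8, acetylornithine aminotransferase, by -1.07. SNZ1 and SNO1, neighbouring genes of vitamin B6 synthesis, differed by -4.27 and -4.81, and SNZ1 by -1.38 with DTT. HIS1 (-2.41), LYS1 (-2.36) and BAT1 (-2.29), the mitochondrial branched-chain aminotransferase on chromosome VIII, were lower as well. HOM6, homoserine dehydrogenase, was at the other end of the list with 0.13. LYS2, the aminoadipate reductase of lysine synthesis on chromosome II, was close in mRNA (-0.08) and lower in footprints (-1.60), with a shared ratio difference of -1.28 (SE 0.106, limma adjusted p = 8.79e-04, at most 0.00191 without any 1 pair, and 0.0629 without the term for treatment).

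Sulfur amino acid genes were lower in untreated cells, with the larger count in footprints. Of 21 tested, 7 were lower and 1 higher past 2-fold in mRNA (background 4.5% and 3.44%). In footprints 12 were lower and 1 higher (background 5.2% and 4.1%). The medians relative to all genes were -0.50 for mRNA and -1.27 for footprints. With DTT those medians were -0.12 and -0.08, and with Tm -0.54 and -1.05. STR3, cystathionine beta-lyase, had 3.29 RPKM in untreated hac1 deletion cells and 58.1 RPKM in WT cells (-3.78). MET2, homoserine acetyltransferase, differed by -2.46 untreated and by -0.50 with DTT, MET6, methionine synthase, by -2.32 and -0.07, and MET17, which makes homocysteine, by -1.96 untreated. MET5, a subunit of sulfite reductase, had more mRNA in hac1 deletion cells (83.1 RPKM, against 65.7 in WT cells) and fewer footprints (30.4 RPKM, against 120.3 in WT cells). The higher genes were SUL1, a sulfate permease, in mRNA (1.12) and MET8, of siroheme synthesis, in footprints (1.21), both on chromosome II.

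Proteasome genes were higher as a set. The proteasome is the protease that degrades ubiquitin-tagged proteins, and Rpn4 is the transcription factor of its genes. Of 32 genes, RPN4 included, 8 were higher past 2-fold in mRNA (background 3.44%) and 15 in footprints (background 4.1%), and 0 were lower. The medians were 0.93 and 0.97, or 0.72 and 0.77 relative to all genes, and relative to all genes the mRNA median was 0.50 with DTT and 0.45 with Tm. All but 2 of the mRNA differences lay between 0.80 and 1.46. The exceptions, RPN10 (-0.09) and RPN1 (-0.05), subunits of the regulatory particle, lie on chromosome VIII. PRE7, a core particle subunit on chromosome II, had 2316, 2849.7 and 2704 RPKM untreated, with DTT and with Tm in hac1 deletion cells, against 840.1, 1268 and 1227 RPKM in WT cells. PRE8, another core subunit, differed by 1.21. RPN4 mRNA was 375, 654 and 475 RPKM in hac1 deletion cells, against 214, 299 and 205 RPKM in WT cells, with no overlap. The shared difference was 1.05 for RPN4 (SE 0.131, limma adjusted p = 0.0186, with 0.0246 to 0.0903 over the leave-one-out fits). The limma fit called 20 of the 32 higher in mRNA (background 8.89%), but 15 without the untreated pair and 0 without either of the other pairs.

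The list of 17 genes of ER-associated degradation had a median of -0.04 relative to all genes, with 3 higher and 1 lower past 2-fold, against 3.44% and 4.5% of all genes. CDC48, the ATPase that extracts ubiquitin-tagged proteins from the ER membrane, had 2562 RPKM in hac1 deletion cells and 1246 RPKM in WT cells (1.04), and differed by 0.05 with DTT and 0.01 with Tm. Its cofactors UFD1 (1.14), NPL4 on chromosome II (1.66; 412 RPKM in the deletion and 129.5 RPKM in WT) and SHP1, also on chromosome II and not on the list (1.58), were higher with it. The lower gene on the list was MNL1, a mannosidase-like factor on chromosome VIII (-1.08).

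Classical targets of the unfolded protein response differed little without stress. None of 16 ER folding genes was past 2-fold in mRNA or footprints in untreated cells. Their median was 0.02 for mRNA and -0.08 for footprints, or -0.20 and -0.28 relative to all genes, whereas relative to all genes the mRNA median was -1.99 with DTT and -2.24 with Tm. KAR2, the ER Hsp70 chaperone, had mRNA of 907, 1277 and 1023 RPKM untreated, with DTT and with Tm in hac1 deletion cells, against 1440.1, 13673 and 13188 RPKM in WT cells. The hac1 deletion values were the lower ones throughout, with a difference of -0.67 in untreated cells. MPD1, a disulfide isomerase family gene, differed by -0.81, EUG1, its relative, by -0.70, and LHS1, an ER Hsp70 family chaperone, by -0.54. PDI1, protein disulfide isomerase, (0.13) and ERO1, its oxidase, (0.15) were close to equal.

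A wider list gave the same contrast between treatments. It holds the 56 genes that were at least 2-fold lower, at both times, in auxin-treated TIR cells than in auxin-treated cells without TIR under DTT, in libraries other than these. In untreated cells its mRNA median was -0.08, or -0.30 relative to all genes. Of the 56, 5 were higher (background 3.44%) and 5 lower (background 4.5%) past 2-fold, and 40 lay below the median of all genes. Relative to all genes the median was -2.43 with DTT, where 52 were lower (background 7.41%), and -2.79 with Tm, where 51 were lower (background 9.42%). Lists of 33 N- and O-glycosylation genes and 21 translocation and signal recognition genes had 0 past 2-fold in untreated cells, and 25 ER-Golgi transport genes had 1, lower. INO1, inositol phosphate synthase, a known responder to the unfolded protein response, was low in both strains, at 15.8 RPKM in hac1 deletion cells and 12 RPKM in WT cells. ODC2, a mitochondrial carrier, differed by -1.08, and HNT1, a nucleotide hydrolase gene, differed by 0.16.

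**Figure D4:**
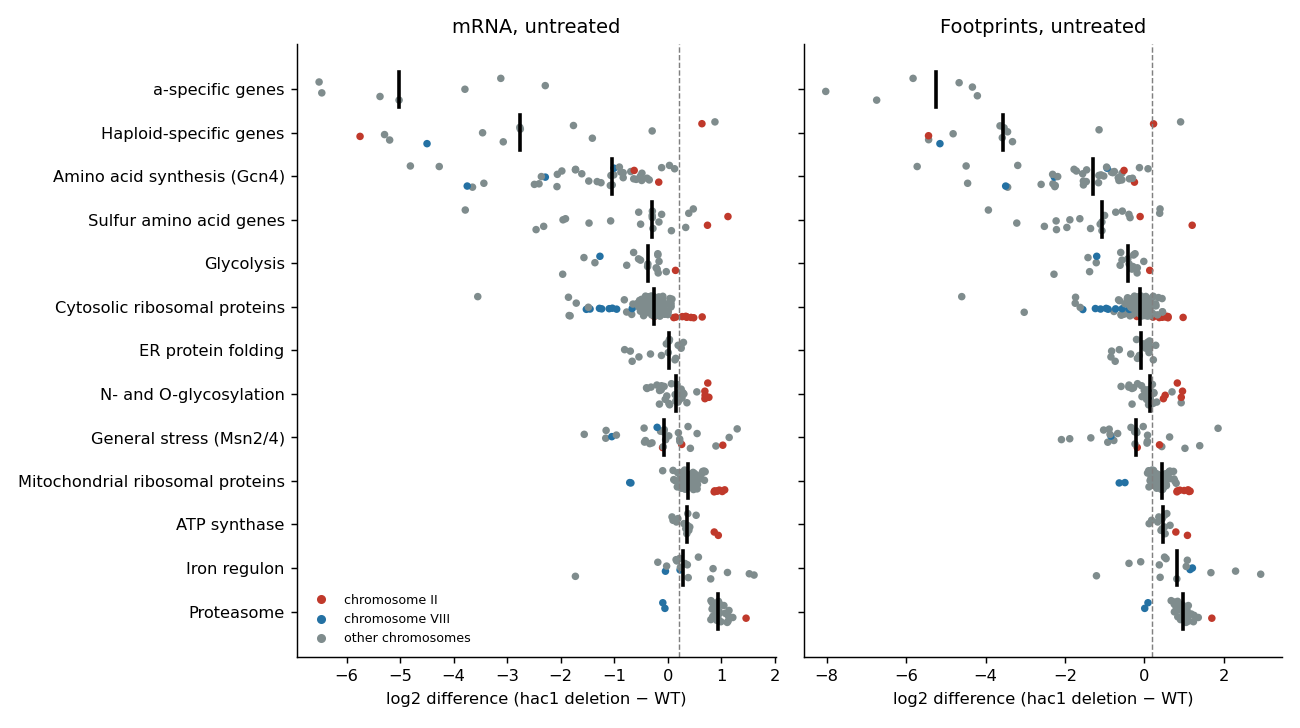
Each dot is the untreated log2(RPKM + 1) difference, hac1 deletion minus WT (x axis), of a gene on 1 of 13 lists (y axis), for mRNA and footprints, with a bar at the list's median and a dashed line at the median of all genes. a-specific, haploid-specific and Gcn4-list genes lie left of the line (mRNA medians -5.02, -2.76 and -1.05), proteasome genes right of it (0.93), and ER folding genes close to it (0.02).

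Among large housekeeping groups, cytosolic ribosomal proteins had a median below that of all genes in untreated cells. Of 138 genes, 12 were lower past 2-fold in mRNA and 0 higher, against 4.5% and 3.44% of all genes, and the median was -0.27, or -0.48 relative to all genes. It was 0.03 with DTT and 0.07 with Tm relative to all genes. Chromosome VIII holds 6 of the 12, with RPL8A (-1.52) the lowest of these, and outside chromosomes II and VIII 6 of 120 were lower. RPS9A, a small-subunit protein with a near-identical copy, stood apart with 252, 204 and 247 RPKM untreated, with DTT and with Tm in hac1 deletion cells, against 2968, 1440.1 and 1734 RPKM in WT cells. Its copy RPS9B differed by -0.25. The RPS9A footprints differed more than its mRNA (-4.60, against -3.55), and the shared ratio difference was -1.14 (SE 0.0755, limma adjusted p = 2.29e-04, at most 0.00113 without any 1 pair). Reads of the copies can be assigned to either, so these values are uncertain.

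Mitochondrial ribosomal proteins had a median of 0.37 over 67 genes, or 0.15 relative to all genes. In mRNA 2 were higher and 0 lower past 2-fold (background 3.44% and 4.5%), and 0 of the 58 outside chromosomes II and VIII were higher. Relative to all genes the mRNA median was 0.31 with DTT and 0.52 with Tm. The limma fit called 22 of the 67 higher in mRNA (background 8.89%) and 1 lower (background 6.17%). It called 8 higher without the untreated pair and 0 without the DTT pair. Glycolysis genes had a median of -0.38 over 18 genes, or -0.59 relative to all genes, with 4 lower (background 4.5%) and 0 higher. The lower ones were the hexokinase HXK1 (-1.96), the enolases ENO1 (-1.57) and ENO2 (-1.27, on chromosome VIII) and the glyceraldehyde-3-phosphate dehydrogenase TDH2 (-1.36). Ribosome biogenesis genes had 1 of 48 higher and 0 lower in mRNA, with 0 higher among the 41 outside chromosomes II and VIII. Of 22 cytosolic chaperone genes 0 were past 2-fold in mRNA, and of 20 cell wall integrity genes 2 were lower (background 4.5%) and 0 higher.

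The footprint/mRNA ratio differed past 2-fold at few genes besides GCN4. Ratios of weak genes are unstable, and 6 of the 8 highest and 5 of the 8 lowest ratio differences rest on a library at 0. FLR1, a drug exporter gene on chromosome II, had footprints of 30.6, 38.3 and 30.1 RPKM untreated, with DTT and with Tm in hac1 deletion cells, against 2.41, 1.27 and 1.49 RPKM in WT cells. Its mRNA differed less, at 133 RPKM in untreated hac1 deletion cells and 53.6 RPKM in WT cells. GTT2, a glutathione transferase gene, had footprints of 41.4, 317 and 38.8 RPKM in hac1 deletion cells, against 5.37, 29.9 and 3.69 RPKM in WT cells. For both genes all 3 hac1 deletion libraries lay above all 3 WT libraries, a separation whose share among all genes was not counted. The shared ratio difference was 2.34 for FLR1 (SE 0.201, limma adjusted p = 0.00101, at most 0.00503 without any 1 pair) and 2.19 for GTT2 (SE 0.178, limma adjusted p = 8.65e-04, at most 6.02e-04). Without the term for treatment GTT2 was not called (limma adjusted p = 0.168), and with no filter on low values neither gene was (limma adjusted p = 0.261 for both). The untreated WT footprint values rest on an estimated 10 reads for FLR1 and 9 for GTT2. YAP1, the oxidative stress activator, was higher in mRNA (635 RPKM in hac1 deletion cells and 288 RPKM in WT cells) with a similar difference in footprints (1.34). The list of 17 redox genes of Yap1 was not higher as a set, with an mRNA median of -0.01 relative to all genes. Of these, 3 were higher and 2 lower past 2-fold in mRNA (background 3.44% and 4.5%).

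**Figure D5:**
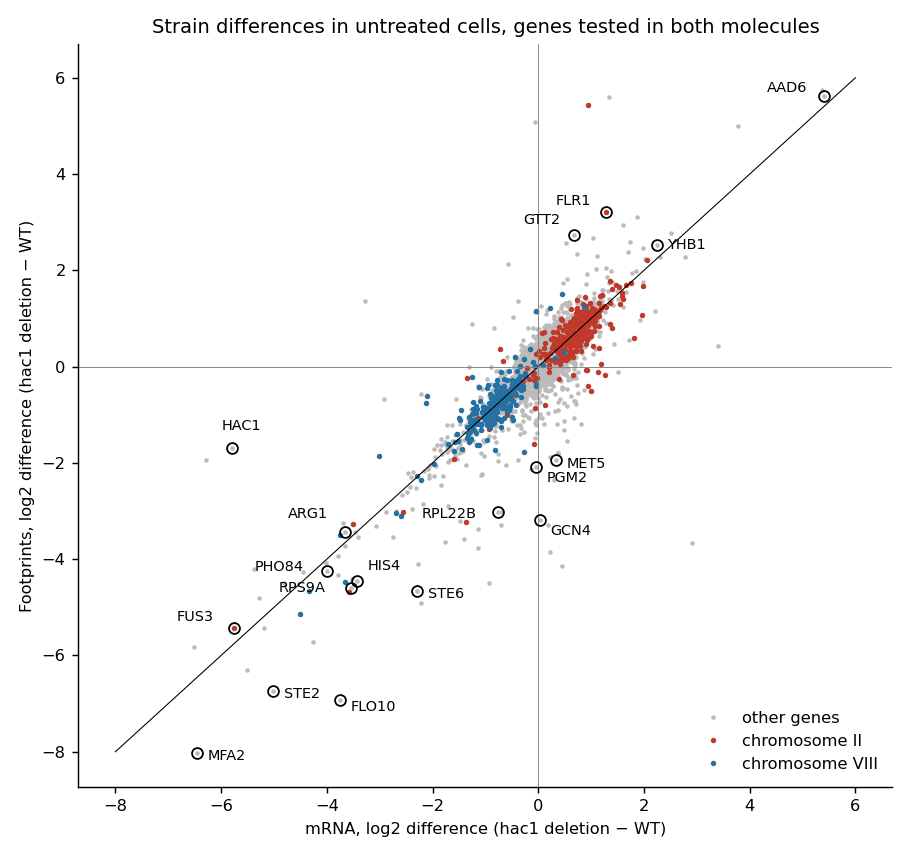
Each point is a gene that passed both filters, with its untreated log2(RPKM + 1) difference, hac1 deletion minus WT, for mRNA on the x axis and for footprints on the y axis; named genes are circled. GCN4 (0.03 in mRNA, -3.19 in footprints) and FLO10 lie below the diagonal and FLR1 and GTT2 above it, while most genes follow the diagonal.

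Part of the iron regulon was higher. Of 18 genes tested for mRNA, 3 were higher and 1 lower past 2-fold, against 3.44% and 4.5% of all genes, and of 15 tested for footprints 7 were higher and 1 lower, against 4.1% and 5.2%. The medians relative to all genes were 0.06 for mRNA and 0.62 for footprints untreated, 0.95 and 1.89 with DTT, and 0.39 and 1.17 with Tm. The limma fit called 6 mRNAs (background 8.89%) and 7 footprint genes (background 7.44%) of the list higher, and 1 lower in each. Without the DTT or the Tm pair it called 0 higher. FIT1 (12.3 RPKM mRNA in hac1 deletion cells and 3.34 in WT cells), FIT2 (1.52) and FIT3 (1.11) encode cell wall mannoproteins that retain siderophore iron. FIT3 differed by 2.30 in footprints. ARN1, a siderophore transporter on chromosome VIII, was equal in mRNA (-0.04) and higher in footprints (1.16), and ARN2 showed 0.23 and 1.21. The shared ratio difference was 1.46 for ARN1 (SE 0.145, limma adjusted p = 0.00183). TIS11, which destabilises messages of iron-using proteins, differed by 1.09 in untreated footprints but by -0.68 with Tm. FET4, a low-affinity iron transporter, was the lower gene (-1.73 in mRNA).

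In the other direction, FLO10, a cell surface flocculin, had mRNA of 7.68 RPKM in untreated hac1 deletion cells and 117 RPKM in WT cells. Its footprints were 2.85, 3.50 and 4.13 RPKM untreated, with DTT and with Tm in hac1 deletion cells, against 469, 140.1 and 149 RPKM in WT cells. Footprints per mRNA were thus 0.371 in the deletion and 4.03 in WT, untreated, and the shared ratio difference was -2.84 (SE 0.175, limma adjusted p = 1.70e-04, at most 0.00112 without any 1 pair). PGM2, phosphoglucomutase, was equal in untreated mRNA (-0.04) and lower in footprints (-2.09), and GLK1, glucokinase, likewise (-0.03 and -1.38). Ratio differences also leaned with gene length, from a median of 0.07 in the shortest of 4 equal bins of genes (median length 540.0 nt) to -0.06 in the longest (2632.5 nt).

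Large differences were also seen outside the groups above. AAD6, a putative aryl-alcohol dehydrogenase gene, had 7054, 22791 and 6715 RPKM untreated, with DTT and with Tm in hac1 deletion cells, against 165, 5076 and 333 RPKM in WT cells. Its neighbour YFL057C (5.37) and its relative AAD4 (3.79) are near-identical in part, and reads can be shared among them. Of the 12 largest higher mRNA differences, 4 rest on a library at 0. MAG1, a DNA glycosylase gene for alkylated bases, had 181, 371 and 238 RPKM in hac1 deletion cells, against 35.7, 86.1 and 65.7 RPKM in WT cells. PUT1, proline oxidase, had 76.8, 292 and 92.8 RPKM in hac1 deletion cells, against 18.8, 46.8 and 22.0 RPKM in WT cells. The shared mRNA difference was 2.08 for MAG1 (SE 0.134, limma adjusted p = 0.0167) and 2.20 for PUT1 (SE 0.174, limma adjusted p = 0.0167), both lost without the Tm pair (limma adjusted p of 0.0903 for MAG1 and 0.0903 for PUT1). YHB1, the nitric oxide scavenging flavohemoglobin, (2.24), ARO10, a decarboxylase of amino acid catabolism, (2.52) and TAT1, an amino acid permease on chromosome II, (2.05) were also higher.

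Lower genes included several of the cell wall, but the list of 20 cell wall integrity genes was not lower as a set. Its medians relative to all genes were 0.02 for mRNA and 0.06 for footprints. In footprints 2 of the 20 were higher and 2 lower past 2-fold (background 4.1% and 5.2%). CWP1 and CWP2 encode cell wall mannoproteins: CWP1 mRNA was 31.0 RPKM in untreated hac1 deletion cells and 403 RPKM in WT cells (-3.66), and CWP2 mRNA was 135 RPKM in the deletion and 1761 RPKM in WT (-3.69). The 2 genes are neighbours, and for each the 3 hac1 deletion mRNA libraries lay below the 3 WT ones. FLO11, the flocculin of filamentous growth, had 17.7 RPKM in hac1 deletion cells and 214 RPKM in WT cells, and NFG1, a negative regulator of filamentous growth, had 2.82 RPKM in the deletion and 173 RPKM in WT. PHO84, the high-affinity phosphate transporter, differed by -3.997 untreated but by -0.50 with DTT and -0.63 with Tm. HXT4, a hexose transporter on chromosome VIII, differed by -2.69, beyond its chromosome's offset. Of common selection marker genes, LEU2 and HIS3 were listed at 0 in all 12 libraries, and URA3 was at 4923 RPKM in untreated hac1 deletion cells and 3689.6 RPKM in WT cells.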

How the data were processed

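The members, gene lists and tests were chosen with earlier results of these data known. The authors deposited a table of RPKM values per gene for the 12 deletion libraries, per the file headers, and a second table for the auxin experiment, taken as RPKM from its range. CASAVA, bcl2fastq 2.17 and Bowtie2 are named in the submitters' processing notes; their settings, the genome build, the annotation, the library denominator and the strand of counting were not given in the sources used here. Overlapping, antisense and near-identical genes are therefore uncertain. What "merge" in the column names joined is not stated. Of 6679 identifiers 5994 matched NCBI's RefSeq table, used for symbols, and 685 did not. Chromosomes were read from systematic names.

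Differences were log2(RPKM + 1), hac1 deletion minus WT, over genes whose mean reached 5 RPKM in the 6 libraries of a molecule; the ratio difference is footprints minus mRNA. The strain difference over 3 pairs was tested with limma 3.58.1 (mean-variance trend, treatment term, 2 residual degrees of freedom, R 4.3.3), called at Benjamini-Hochberg adjusted p under 0.05, after a check on simulated data. In that check 49.3% of simulated log2 differences of 1 were called in each molecule. For differences of 4 it was 100% in mRNA and 97.0% in footprints. A gene that was not called may therefore still differ. Other steps used Python 3.11.15, pandas 2.3.3 and numpy 2.4.6. Reads were estimated from whole multiples (within 0.02) at a length shortened by 60 nt; the 12 libraries held 8.36 to 27.5 M, and no count model was fitted. Named genes were HAC1 and its neighbours, the largest differences, the smallest limma p-values, list members past 2-fold or largest on their list, and a few fixed genes. Alternatives were other pseudocounts, filters, scalings and fits, and leaving out each pair.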

Additional observations from a re-analysis of the deposited data

Results flagged for a closer look

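Among the named genes, a few were past 2-fold one way in untreated cells and past 2-fold the other way in the DTT or Tm pair. Other genes were not searched for this, and differences are hac1 deletion minus WT throughout. With 1 library a side these differences between treatments were not tested. In mRNA, SUL1, the sulfate permease on chromosome II, differed by 1.12 untreated and -3.52 with DTT. FMP45, an eisosome-related membrane protein, differed by 1.04 untreated and -1.38 with DTT in mRNA, and by 2.67 and -2.37 in footprints. AMS1, the vacuolar mannosidase, differed by 1.40 and -1.26 in mRNA and by 1.75 and -1.23 in footprints of the same pairs. CTT1, cytosolic catalase, differed in footprints by 1.40 untreated and -1.25 with DTT. HSP12, a membrane-binding stress protein, differed in footprints by 1.03 untreated and -1.35 with Tm, and PLS1 by 2.13 and -1.501. The others are small reading frames identified by systematic name: YOR293C-A with 3.40 untreated and -3.70 with DTT in mRNA, YPL152W-A with 5.08 and -2.17 in footprints of those pairs, and YDR118W-A with -3.85 untreated and 4.29 with Tm, and YNL146C-A with 1.36 and -2.40, both in footprints. Several of these values rest on very few reads. Estimated untreated footprint reads in hac1 deletion and WT cells were 1 and 0 for PLS1, 1 and 0 for YNL146C-A, and 6 and 0 for YPL152W-A. For YOR293C-A the estimated untreated mRNA reads were 4.3 and 0.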

How the results depend on the processing

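No named gene past 2-fold changed sign under other pseudocounts or centring. For mRNA and footprints those settings could not reverse such a difference, so this says nothing of its stability. Smaller differences did change sign. The balance of higher against lower limma calls for mRNA and footprints turned round under median-ratio scaling, with no treatment term, and when any 1 pair was left out. Of the alternative values of the main results 68 stayed within the limits set for them and 44 moved; for single genes and lists 2941 stayed and 409 moved. With the median of all genes at 0, 103 mRNAs and 115 footprint genes were higher past 2-fold, and with each chromosome's median at 0, added after seeing the data, 89 and 97. The ratio counts were 23 higher at a pseudocount of 5, 145 higher and 256 lower with no filter, and 22 and 47 at a mean of at least 20 RPKM. The limma counts depended on the settings. Leaving out each pair gave 0 to 389 mRNAs higher and 1 to 544 lower, 0 to 44 footprint genes higher and 8 to 165 lower, and 30 to 107 ratios higher and 63 to 119 lower. In the ratio fit without the DTT pair limma took each gene's spread wholly from that of all genes. Ratio calls of single genes kept when a pair was left out therefore say little of their stability. With no filter the counts, higher and lower, were 0 and 1 for mRNA, 0 and 0 for footprints (1770 at an unadjusted p under 0.05) and 1 and 0 for the ratio. With no treatment term they were 80 and 100, 28 and 61, and 4 and 22. Median-ratio scaling gave 290 and 423 for mRNA and 202 and 349 for footprints. No mean-variance trend gave 253 higher footprint genes and ratio counts of 12 and 42. The causes were not tested. The offset of chromosome VIII was -0.92 for mRNA and -0.79 for footprints with no filter, and -0.99 for footprints by the mean. The limma fit pairs libraries by treatment, through its treatment term. The labels give no replicate numbers, so no other pairing was made. Depth limits weak genes: a gene near 5 RPKM has few reads, and footprints of WT cells were the shallowest of the untreated libraries.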
